A study of Mus musculus with 49 samples.

Results

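The Hox genes of the 4 mammalian clusters were followed in the white fat depots of C57BL/6 and 129S1/SvImJ, 2 inbred strains of mouse. Members were all genes whose symbol was Hoxa, Hoxb, Hoxc or Hoxd with a number, which gave 39 of the 22869 gene symbols in the deposited tables. HoxA held 11 members, HoxB 10, HoxC 9 and HoxD 9, and each was represented by the transcript with the highest total over all libraries. Epididymal fat (eWAT), a visceral depot beside the testis, gave 5 libraries of each strain from mice fed chow, 4 from mice fed control low fat diet, and 4 from mice fed that diet with rosiglitazone, a drug that activates PPARγ. Mice of the drug experiment were 6 weeks old at the start, ate control diet to 16 weeks of age, and ate control diet or diet with 36 mg of rosiglitazone per kg until 18 weeks. Further groups ate low fat diet for 12 weeks and gave eWAT (5 C57BL/6 and 4 129S1/SvImJ libraries) and inguinal subcutaneous fat (iWAT, 4 per strain). The labels name no engineered allele, and give no age for the chow and 12-week groups. The labels do not say that replicates were separate mice, so the p-values reflect only how far these samples spread, which may be technical.

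Hox genes encode homeodomain transcription factors that give cells their position along the head-to-tail axis of the embryo. Each cluster holds its paralogs in numerical order, from group 1, expressed farthest forward, to group 13, expressed farthest back. Adult fat cells and their progenitors keep part of this code, and depots are known to differ in it. The clusters also hold microRNA genes of the miR-196 and miR-10 families, and miR-196 is known to act on messenger RNAs of Hox genes.

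The sequences at the HoxA and HoxC positions where the depots differed are shown first. In the RefSeq annotation of GRCm38.p6, Mir196b lies between Hoxa9 and Hoxa10 on chromosome 6, Mir196a-2 lies between Hoxc9 and Hoxc10 on chromosome 15, and Mir196a-1 lies between Hoxb9 and Hoxb13 on chromosome 11. Mir196a-1 and Mir196a-2 give the same mature sequence. The 2 mature sequences are printed 5′ to 3′ with the seed, bases 2 to 8, in capitals, and both share the seed AGGUAGU. For Mir196b the mature strand lies on the minus strand at chr6:52230129-52230150, and for Mir196a-2 on the plus strand at chr15:102973365-102973386.
mmu-miR-196a-5p: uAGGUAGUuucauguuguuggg
mmu-miR-196b-5p: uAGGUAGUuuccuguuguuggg

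Promoters, as 250 bases before and 50 after an annotated start (RefSeq, GRCm38.p6), were found for 22 of the 39 members. Those of Hoxa9 and Hoxa10 are shown because these neighbours were both higher in iWAT in both strains, and that of Hoxd4 because it had the smallest adjusted p of the strain differences in eWAT. Capitals mark matches to 4 motifs searched on both strands, namely TGATNNAT (a site of PBX and HOX proteins), CCAAT (the CCAAT box), TATAAA (the TATA box) and AGGTCA (a nuclear receptor half-site). A match on the opposite strand appears as its reverse complement. Of all 32851 promoters of this length, 8.85% held TGATNNAT, 37.4% CCAAT, 13.6% TATAAA and 16.3% AGGTCA. The windows were chr6:52227321-52227620 for Hoxa9, chr6:52240805-52241104 and chr6:52234890-52235189 for the 2 starts of Hoxa10, all on the minus strand, and chr2:74721728-74722027 on the plus strand for Hoxd4.
Hoxa9: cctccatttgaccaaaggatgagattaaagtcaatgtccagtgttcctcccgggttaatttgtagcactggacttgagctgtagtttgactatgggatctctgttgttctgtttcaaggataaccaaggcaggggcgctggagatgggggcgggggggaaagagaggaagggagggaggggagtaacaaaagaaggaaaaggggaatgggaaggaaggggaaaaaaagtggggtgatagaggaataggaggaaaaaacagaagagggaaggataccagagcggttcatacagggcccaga
Hoxa10, first start: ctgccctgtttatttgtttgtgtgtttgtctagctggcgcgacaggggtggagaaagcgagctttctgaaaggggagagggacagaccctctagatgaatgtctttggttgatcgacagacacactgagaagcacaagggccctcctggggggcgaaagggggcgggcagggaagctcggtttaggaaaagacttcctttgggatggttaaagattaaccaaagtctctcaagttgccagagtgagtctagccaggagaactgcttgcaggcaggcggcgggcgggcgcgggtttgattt
Hoxa10, second start: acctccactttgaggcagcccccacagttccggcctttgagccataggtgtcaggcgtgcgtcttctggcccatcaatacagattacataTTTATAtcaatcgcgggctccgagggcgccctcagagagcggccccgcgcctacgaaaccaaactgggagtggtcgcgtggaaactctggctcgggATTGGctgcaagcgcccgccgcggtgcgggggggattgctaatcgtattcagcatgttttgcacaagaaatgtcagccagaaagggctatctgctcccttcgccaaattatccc
Hoxd4: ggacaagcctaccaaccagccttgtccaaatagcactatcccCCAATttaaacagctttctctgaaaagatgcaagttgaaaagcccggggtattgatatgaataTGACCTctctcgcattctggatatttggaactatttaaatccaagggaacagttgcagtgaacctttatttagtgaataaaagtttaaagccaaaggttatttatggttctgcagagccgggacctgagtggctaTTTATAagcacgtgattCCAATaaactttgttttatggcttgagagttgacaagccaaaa
The Hoxa9 window and the first Hoxa10 window held no match. The second Hoxa10 window held 1 CCAAT and 1 TATAAA match, and the Hoxd4 window held 2 CCAAT, 1 TATAAA and 1 AGGTCA match, with no overlap between matches. GC content was 49.7% at Hoxa9, 54.3% and 57.3% at the 2 Hoxa10 starts, and 39.7% at Hoxd4.

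Values are whole numbers with a floor of 1 that the authors normalised, and are called levels here. The libraries on chow, those of the drug experiment and those of the 12-week diet have different top values, so levels are compared only within each of these sets. A member was counted as detected in a group where its mean level was at least 5. By this rule 30 of the 39 members were detected in at least 1 group. Of these, Hoxa11, Hoxd10 and Hoxd13 passed only through 129S1/SvImJ chow replicate 1. In that library 8 epididymis and vas deferens markers had a high sum, 34015, but a mean log2 level of only 4.70. Not detected in any group were Hoxa13, Hoxb1, Hoxb13, Hoxc11, Hoxc12, Hoxc13, Hoxd1, Hoxd11 and Hoxd12. The 4 C57BL/6 iWAT libraries were coarse, with 467 to 679 distinct values against 1293 to 1865 in the others. Their first value above the floor was 8, 10, 11 and 5, so low levels there are known only in steps of this size. Markers of other cells also set libraries apart. The mean log2 level of 8 epididymis and vas deferens markers was 13.73 in 129S1/SvImJ chow replicate 2 and 4.70 or less in every other chow library, and 6 lymphocyte markers stood at 7.99 in C57BL/6 iWAT replicate 4 and at 8.93 and 7.42 in 129S1/SvImJ iWAT replicates 1 and 4. Skeletal muscle markers reached 10.23 in C57BL/6 eWAT replicate 3 of the 12-week diet. In the other libraries of that diet the muscle markers were at 8.06 or less. Adipocyte markers were between 12.98 and 13.74 in all libraries but that same chow replicate 2, where they were at 10.57.

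On the 12-week diet and in the drug experiment the detected members ended at a border within each cluster, above which the means lay below 5. In eWAT after 12 weeks of low fat diet, HoxA was detected up to Hoxa7, HoxB up to Hoxb9, HoxC up to Hoxc9 and HoxD up to Hoxd9, in both strains. In iWAT the border lay higher in 2 clusters, at Hoxa10 and at Hoxc10, and that of HoxB was Hoxb7 in C57BL/6 and Hoxb9 in 129S1/SvImJ. The first value above the floor was 5 to 11 in the C57BL/6 iWAT libraries and 2 in those of 129S1/SvImJ. This HoxB difference can therefore not be read as one of strain. Per kilobase of transcript, Hoxc8, a trunk-level paralog, had the highest level of all 39 members in each of the 10 groups. Within the 12-week diet it ran from 121 in 129S1/SvImJ iWAT to 249 in 129S1/SvImJ eWAT. Hoxc6 came second in 8 of the groups, with 45.7 against 151 for Hoxc8 in C57BL/6 eWAT after 12 weeks. The colour map of group means by cluster and paralog number shows these borders.

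**Figure D1:**
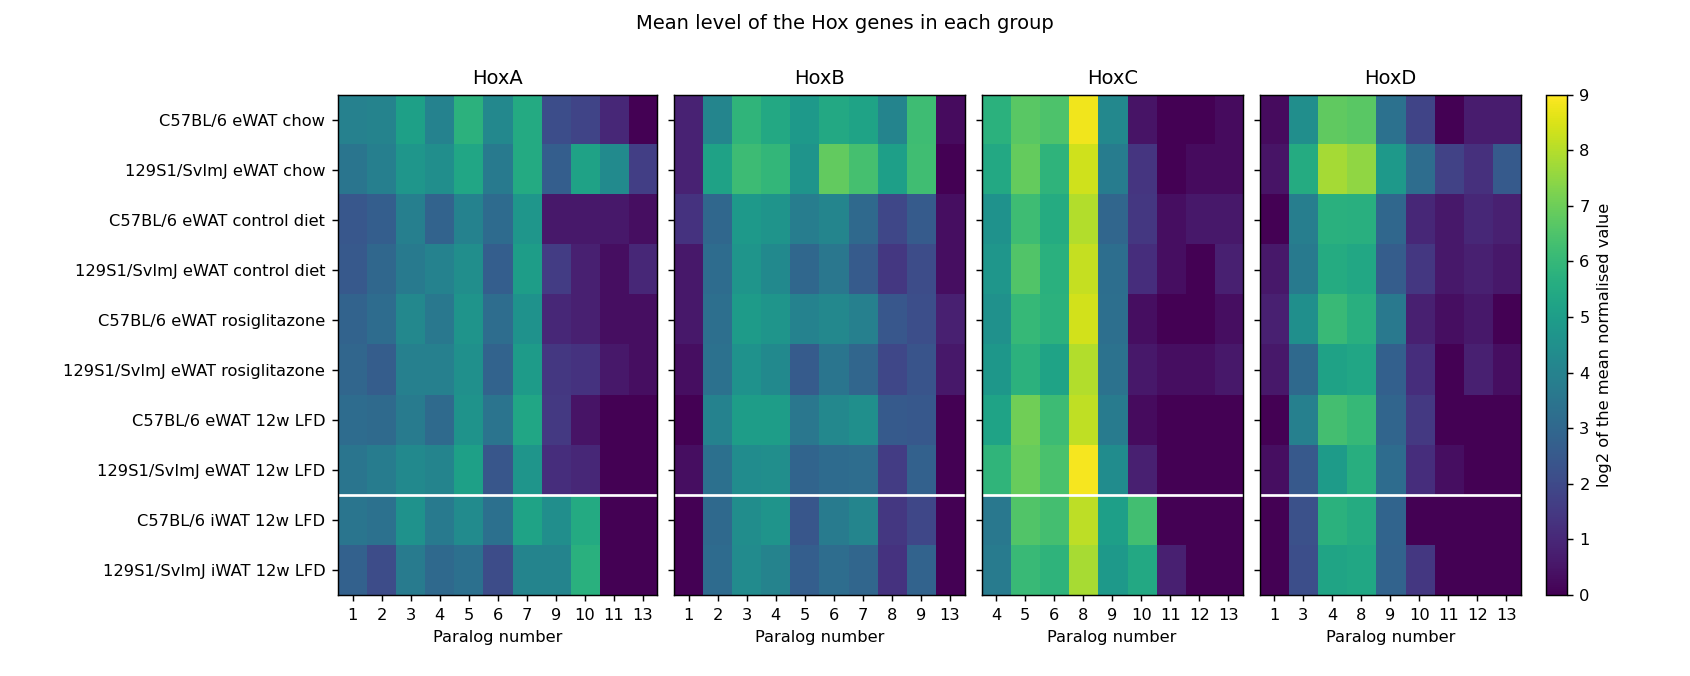
Mean normalised level of each Hox gene (columns, by cluster and paralog number) in each of the 10 groups (rows), on a log2 colour scale, with iWAT below the white line. Chow, drug experiment and 12-week diet were normalised separately, so colours compare rows only within these sets. Hoxc8 is the brightest column in every row, and the columns for Hoxa9, Hoxa10 and Hoxc10 are brighter below the line than in the eWAT rows of the same diet. Hoxa10 is also bright in 129S1/SvImJ chow, where 1 of 5 libraries stood at 163.

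The depots were compared within each strain after 12 weeks of low fat diet, and Hoxa9, Hoxa10 and Hoxc10 were higher in iWAT in both. Hoxa10, a paralog known for its part in hindlimb-level and reproductive tract patterning, had levels of 1, 1, 2, 1 and 2 in C57BL/6 eWAT and of 42, 53, 41 and 43 in C57BL/6 iWAT. In 129S1/SvImJ its levels were 1, 2, 2 and 3 in eWAT and 44, 50, 54 and 63 in iWAT. All iWAT libraries lay far above all eWAT libraries, with no overlap. Fold changes are given on the log2(level + 1) scale, where they understate the change of a gene near the floor, and a gene was called at a Benjamini-Hochberg adjusted p under 0.05 in limma. Hoxa10 was higher in iWAT by 4.27 ± 0.20 (SE; adjusted p = 1.26e-08) in C57BL/6 and by 4.19 ± 0.21 (adjusted p = 3.20e-08) in 129S1/SvImJ.

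Hoxc10, its HoxC paralog and a known marker of subcutaneous fat, had levels of 1, 1, 1, 2 and 1 in C57BL/6 eWAT and 69, 53, 113 and 73 in iWAT. In 129S1/SvImJ it had 2, 1, 1 and 3 in eWAT and 21, 49, 56 and 48 in iWAT. The depots did not overlap in either strain, and the lowest iWAT library, 129S1/SvImJ replicate 1 at 21, was also the one with the highest lymphocyte markers. The log2 fold change was 5.11 ± 0.31 in C57BL/6 (limma adjusted p = 1.74e-07) and 3.99 ± 0.32 in 129S1/SvImJ (7.42e-06). Hoxa9 had levels of 1, 3, 3, 4 and 3 in C57BL/6 eWAT against 8, 19, 21 and 39 in iWAT, and 1, 2, 4 and 2 against 9, 17, 15 and 25 in 129S1/SvImJ. Here too no library of one depot reached the range of the other. In C57BL/6 the iWAT libraries take no value between 1 and 5, so any level above the floor there exceeds the eWAT range of 1 to 4. The C57BL/6 iWAT levels of 8, 19 and 21 lie on the lowest steps of their libraries. Its log2 fold changes were 2.45 ± 0.42 (limma adjusted p = 0.00187) and 2.43 ± 0.44 (0.011). Without the 3 iWAT libraries high in lymphocyte markers, a choice made after seeing the data, all 3 genes were still called in both strains. In 129S1/SvImJ the Hoxa9 call was lost when only the 2 groups compared entered the fit.

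**Figure D2:**
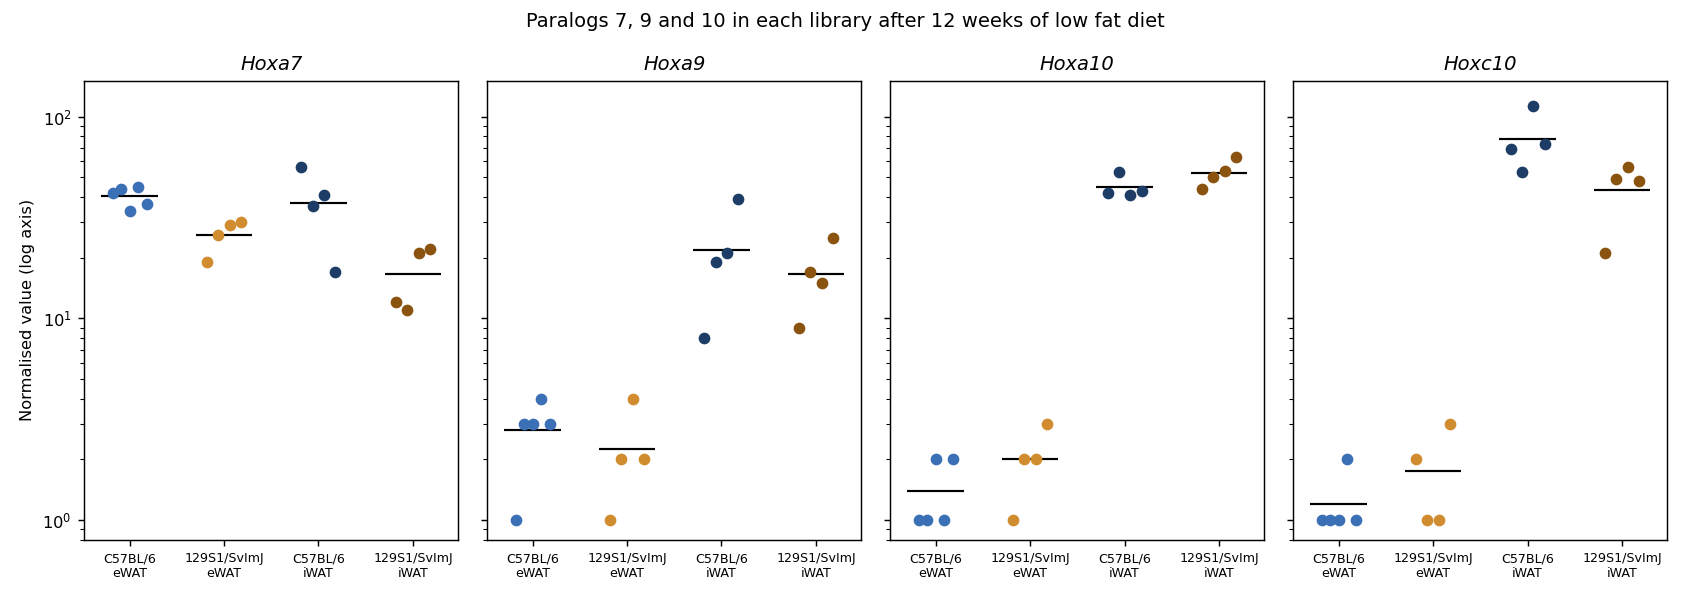
Normalised level of Hoxa7, Hoxa9, Hoxa10 and Hoxc10 in each library after 12 weeks of low fat diet (points, log axis), by strain and depot, with the group mean as a line. Hoxa7 was detected in both depots, while the other genes lie at 4 or less in all eWAT libraries and at 8 or more in all iWAT libraries. The C57BL/6 iWAT libraries take no value between 1 and 5.

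Beyond the border Hoxa11, the next gene of HoxA, stood at the floor of 1 in all 17 libraries of the 12-week diet, and so did Hoxa13, Hoxc12 and Hoxc13. Hoxc11 stood at 1 in all of them but 3, the 129S1/SvImJ iWAT replicates 1 to 3, each at 2. This difference of 1 unit was called (log2 fold change 0.44 ± 0.10, limma adjusted p = 0.0392), the groups overlapped, and the call was lost with the replicate block, with only the 2 groups compared, and without any 1 eWAT library or iWAT replicate 1, 2 or 3 of the strain. On the near side, Hoxc9 had levels of 12, 15, 15, 15 and 10 in C57BL/6 eWAT and 35, 69, 11 and 21 in iWAT, and 26, 15, 22 and 20 against 15, 37, 36 and 26 in 129S1/SvImJ. The depots overlapped in both strains, and the log2 fold changes of 1.00 ± 0.41 and 0.39 ± 0.43 were not called (limma adjusted p = 0.136 and 0.794). Hoxa7 was not called either, at -0.21 ± 0.29 in C57BL/6 and -0.67 ± 0.31 in 129S1/SvImJ.

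Of the 39 members 5 were called between depots in each strain, which is 12.8%. Across all genes, 13.1% were called between depots in C57BL/6 and 1.72% in 129S1/SvImJ, so the members' share was near the background in the first strain. The members called higher in iWAT were 3 in C57BL/6 (5.27% of all genes) and 4 in 129S1/SvImJ (0.525%), and those called lower were 2 (7.81%) and 1 (1.19%). These depot comparisons and the strain comparisons after 12 weeks use the same libraries. In C57BL/6 the count was 3 without eWAT replicate 1 and 8 without iWAT replicate 1, and in 129S1/SvImJ it was 3 without eWAT replicate 1, 3 or 4 or iWAT replicate 1 or 2. The median log2 fold change of the members was -0.04 in C57BL/6 and -0.15 in 129S1/SvImJ, against 0.00 for all genes in both. No HoxB member was called in either strain in the main fit. Under alternatives in C57BL/6, Hoxb2 and Hoxb5 were called lower with the filter on low values and without iWAT replicate 2. Hoxb3 and Hoxb8 were called lower without iWAT replicate 1, and Hoxb5 without iWAT replicate 4 and without the lymphocyte-high libraries. In the main fit for C57BL/6 the median over all 10 HoxB members was -0.60, and 8 of them had a log2 fold change below 0 and none above. The largest of these, at Hoxb2 (-1.71 ± 0.62, limma adjusted p = 0.0912), Hoxb5 (-1.47 ± 0.50, 0.0717) and Hoxb8 (-1.17 ± 0.45, 0.113), rested on iWAT levels of 1, 27, 1 and 5 for Hoxb2, 1, 10, 1 and 9 for Hoxb5 and 8, 1, 1 and 1 for Hoxb8. At least 1 iWAT library stood at the floor in each case, in the coarse C57BL/6 iWAT set.

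The called members that were lower in iWAT differed between strains. Hoxc4, a cervical-level paralog, had levels of 43, 35, 32, 38 and 38 in C57BL/6 eWAT and 22, 1, 21 and 5 in iWAT, a log2 fold change of -2.11 ± 0.58 (limma adjusted p = 0.0302). In 129S1/SvImJ its levels were 83, 45, 50 and 59 in eWAT and 9, 23, 9 and 13 in iWAT, and the same log2 fold change of -2.11 ± 0.62 was not called (adjusted p = 0.137). The depots did not overlap in either strain. Hoxd3 was called in C57BL/6 (21, 15, 11, 16 and 13 in eWAT; 8, 1, 1 and 9 in iWAT; log2 fold change -1.86 ± 0.48, limma adjusted p = 0.0218), and Hoxc8 in 129S1/SvImJ. The first value above the floor was 8, 10, 11 and 5 in C57BL/6 iWAT replicates 1 to 4. Levels of Hoxc4 and Hoxd3 there are therefore known only in steps of this size, and replicate 2 stood at the floor for both genes. Hoxc8 had levels of 731, 348, 415 and 368 in 129S1/SvImJ eWAT and 160, 228, 288 and 226 in iWAT. All eWAT libraries lay above all iWAT libraries, replicate 1 of eWAT stood highest, and from eWAT to iWAT the level fell by 1.00 ± 0.23 on the log2 scale (limma adjusted p = 0.0439). In C57BL/6 Hoxc8 was at 275, 304, 238, 312 and 286 in eWAT and 302, 329, 269 and 211 in iWAT, which overlapped (-0.04 ± 0.22). All 3 calls were lost with the replicate number as a block and with only the 2 groups compared in the fit. The Hoxc4 call was also lost without any 1 C57BL/6 eWAT library or iWAT replicate 4, and the Hoxd3 call without eWAT replicate 1 or iWAT replicate 2 or 3. The Hoxc8 call was lost without 129S1/SvImJ eWAT replicate 1, 3 or 4 or iWAT replicate 1, 2 or 4.

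Hoxa5 and Hoxa2 in 129S1/SvImJ also had depots that did not overlap. Hoxa5 had 34, 30, 39 and 37 in eWAT and 8, 10, 13 and 9 in iWAT (log2 fold change -1.72 ± 0.66, limma adjusted p = 0.275). Hoxa2 had 19, 11, 14 and 11 against 4, 3, 5 and 5 (-1.48 ± 0.59, 0.29). Hoxa4 in the same strain had 16, 17, 16 and 18 against 5, 9, 12 and 8 (-0.95 ± 0.43, 0.357). The fit pooled the spread of all 4 groups, and with only the 2 groups of the strain in it Hoxa5 (0.00621) and Hoxa2 (0.0462) were called. In C57BL/6 iWAT the same genes ranged from 1 to 35 for Hoxa5 and from 1 to 27 for Hoxa2. Hoxa3 and Hoxa4 stood at 15, 19, 31 and 30 and at 8, 27, 11 and 5 in C57BL/6 iWAT, against 10 to 19 and 4 to 15 in eWAT, and neither was called (0.76 ± 0.24 and 0.39 ± 0.41).

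**Figure D3:**
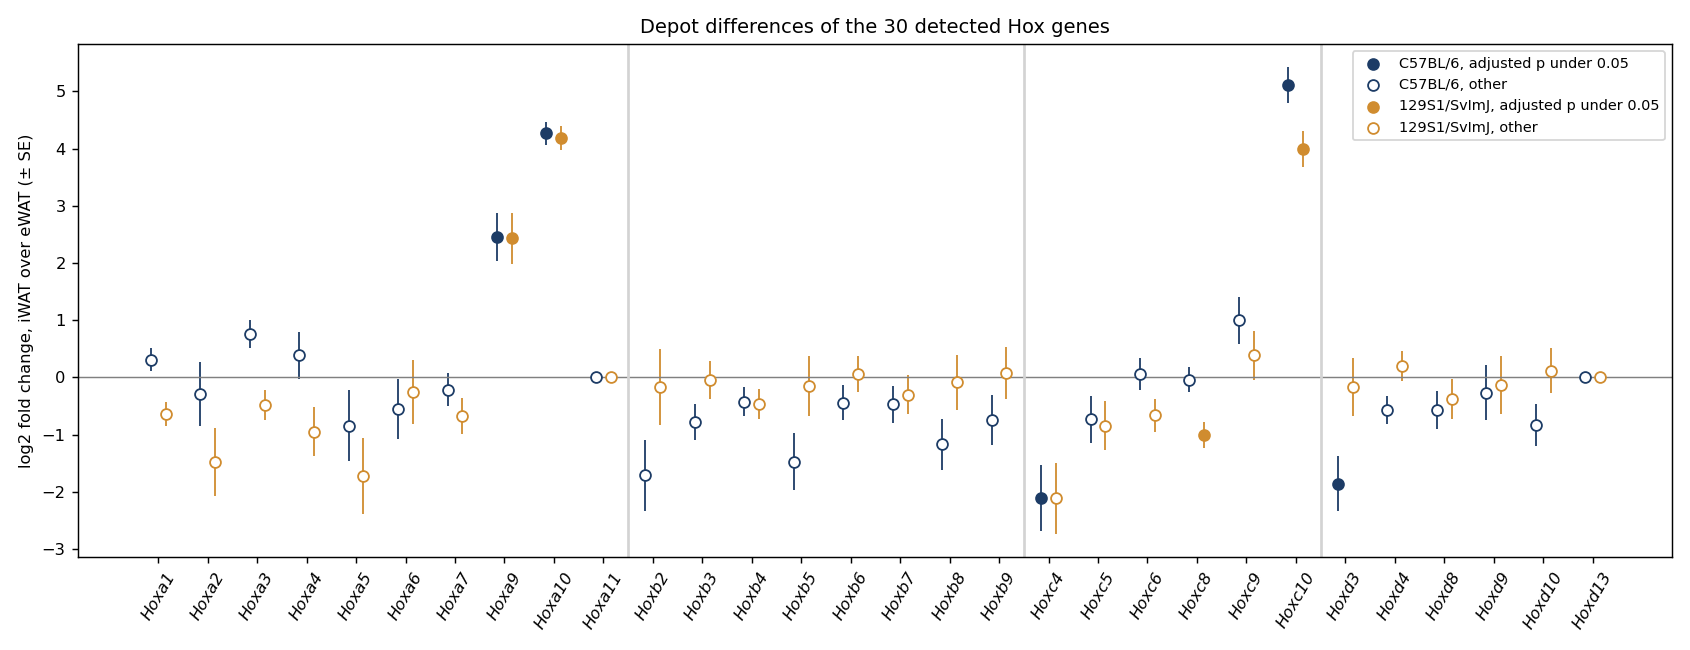
Log2 fold change of iWAT over eWAT (± SE) for the 30 detected Hox genes, in cluster order, for both strains, with filled points where the limma adjusted p was under 0.05. Hoxa9, Hoxa10 and Hoxc10 stand above 2 in both strains, and the other members lie between -2.11 and 1.00.

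The test of the difference between strains in the depot effect called no member (limma, 8 of 39 at an unadjusted p under 0.05), against 3.14% of all genes. The largest difference among the 3 border genes was that of Hoxc10, at -1.12 ± 0.44 on the log2 scale (129S1/SvImJ minus C57BL/6, adjusted p = 0.216, 95% interval -2.08 to -0.17). The count became 2, Hoxc11 and Hoxd4, without the lymphocyte-high libraries. It became 1 without 129S1/SvImJ iWAT replicate 4 (Hoxc11) and without C57BL/6 iWAT replicate 1 (Hoxa3), 2 (Hoxb2) or 3 (Hoxa5). The Hoxc11 calls rest on levels of 2 against 1, and the coarse C57BL/6 iWAT libraries cannot take the value 2.

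The labels give each depot an experiment number of its own, so depot and experiment cannot be told apart. In these bulk tissues fewer cells of a type and less RNA per cell cannot be told apart either. The 8 mesothelial markers moved with the depot, with a summed level of 1662 to 2934 in the eWAT libraries of this diet and 8 to 31 in the iWAT libraries. Of them Wt1 and Bnc1 were at the floor in every iWAT library of both strains, and Msln, Upk1b and Krt8 also in every C57BL/6 iWAT library. The part of these cells in the Hox differences was not tested. Of 11 other depot transcription factors, Wt1 and Bnc1 again among them, 3 were higher and 4 lower in iWAT in each strain, among them Tbx15 (4.57 ± 0.49 and 4.50 ± 0.51), Shox2 (3.47 ± 0.21 and 3.39 ± 0.22) and Tcf21 (-2.87 ± 0.14 and -3.50 ± 0.15) in C57BL/6 and 129S1/SvImJ.

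The partners and regulators of Hox proteins were compared between depots as lists, against 13.1% of all genes called in C57BL/6 (5.27% higher, 7.81% lower) and 1.72% in 129S1/SvImJ. Of 9 cofactors that bind DNA beside Hox proteins, Meis1 was lower in iWAT in both strains, by -1.30 ± 0.29 in C57BL/6 (limma adjusted p = 0.0088) and -1.50 ± 0.30 in 129S1/SvImJ (0.0208). Pknox2 was called higher in C57BL/6 (0.95 ± 0.22) and not in 129S1/SvImJ, and its depot effect differed between strains (-1.37 ± 0.32, adjusted p = 0.0345). Of 23 measured Polycomb and Trithorax genes, which keep Hox clusters silent or active, 3 were called higher (Kdm6a, Suz12 and Eed, by 0.50 to 0.66) and 1 lower (Men1) in C57BL/6, and none in 129S1/SvImJ. Of 17 genes of retinoic acid, a known inducer of Hox genes, 5 were called lower in C57BL/6, with Aldh1a2, which makes retinoic acid and is also strong in mesothelium, at -4.37 ± 0.56, and none in 129S1/SvImJ. Of 16 genes flanking the clusters, 5 were called higher and 1 lower in C57BL/6, and 1 higher in 129S1/SvImJ. The last was Snx11, beside HoxB, which was called lower in C57BL/6 (-0.66 ± 0.09) and higher in 129S1/SvImJ (0.49 ± 0.09). The microRNA gene Mir196a-2 stood at 1 in all eWAT and C57BL/6 iWAT libraries and at 2 to 3 in 129S1/SvImJ iWAT. Mir196b stood at 1 or 2 in all libraries of this diet, and such levels next to the floor carry little information on the mature microRNA, which these messenger RNA libraries did not measure.

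The strains were compared next, within each diet and depot. After 12 weeks of low fat diet in eWAT, 9 members were called and 8 of them were lower in 129S1/SvImJ, of which 4 were HoxB and 2 HoxD genes. The share of 23.1% was near the 21.7% of all genes called, with 10.2% of all genes called lower and 11.6% higher. Hoxd4, a hindbrain and cervical paralog, had levels of 78, 90, 63, 88 and 75 in C57BL/6 and 36, 25, 28 and 35 in 129S1/SvImJ, with no overlap, and a log2 fold change of -1.32 ± 0.15 (limma adjusted p = 0.0011). Hoxb7, a trunk paralog, had 24, 21, 22, 24 and 20 against 11, 6, 9 and 11, again apart (-1.21 ± 0.17, limma adjusted p = 0.00263). These were the calls that held under all 14 alternatives run for them. The 5 endothelial markers also differed between the strains here, with a summed level of 3670 to 4154 in C57BL/6 and 1518 to 2145 in 129S1/SvImJ, apart and in the direction of most Hox calls, and none of them at the floor. Their part in the Hox differences was not tested.

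The other calls had larger relative errors or smaller differences. Hoxb4 was at 35, 29, 32, 30 and 35 against 20, 21, 28 and 19 (-0.54 ± 0.12, limma adjusted p = 0.0172). Hoxa7 was at 42, 44, 34, 45 and 37 against 19, 26, 29 and 30 (-0.63 ± 0.15, 0.0228), and Hoxb3 at 32, 33, 28, 37 and 33 against 19, 15, 26 and 24 (-0.63 ± 0.16, 0.0298). In these 3 genes the strains did not overlap. Hoxd3, the neighbour of Hoxd4, was at 21, 15, 11, 16 and 13 against 5, 4, 11 and 3 (-1.36 ± 0.34, 0.0261), and here 1 library of each strain stood at 11. Hoxa6 (-0.92 ± 0.26) and Hoxb6 (-1.01 ± 0.29) were the remaining lower calls, at 8 to 18 against 4 to 7 and at 12 to 27 against 5 to 11. Hoxc4 was the call in the other direction, at 43, 35, 32, 38 and 38 against 83, 45, 50 and 59 (0.62 ± 0.18, adjusted p = 0.0463).

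HoxC as a whole did not share the direction of HoxB. The median log2 fold change was -0.64 over the HoxB members, 0.24 over the HoxC members, 0.31 over HoxA and 0.00 over HoxD, against 0.00 for all genes. These medians include members near the floor. The HoxD members detected in this set, Hoxd3, Hoxd4, Hoxd8 and Hoxd9, stood at -1.36, -1.32, -0.39 and 0.08, so the HoxD median does not describe them. Hoxc8 was at 275, 304, 238, 312 and 286 in C57BL/6 and at 731, 348, 415 and 368 in 129S1/SvImJ, apart but not called (0.65 ± 0.22, limma adjusted p = 0.0809). The count of 9 fell to 2, Hoxb7 and Hoxd4, with the replicate number as a block and rose to 14 with a filter on low values. Leaving out single libraries gave 3 to 8 calls, with 3 without C57BL/6 replicate 1, 4 without C57BL/6 replicate 2, 4 or 5, and 5 without 129S1/SvImJ replicate 4.

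On the other diets fewer members were called, and differences between diets were not tested. On rosiglitazone, 4 members were called lower in 129S1/SvImJ (10.3% of members, against 10.7% of all genes called in either direction and 5.23% called lower). Hoxd3 had levels of 29, 18, 26 and 16 in C57BL/6 and 9, 9, 10 and 6 in 129S1/SvImJ (-1.27 ± 0.26, limma adjusted p = 0.00233). Hoxd4 had 84, 81, 52 and 58 against 38, 31, 37 and 38 (-0.89 ± 0.24, 0.0183), and Hoxb5 had 21, 13, 12 and 18 against 6, 7, 6 and 5 (-1.25 ± 0.35, 0.0252). The strains were apart for all 3. Hoxc8 had 373, 279, 336 and 362 against 216, 242, 232 and 298, which overlapped (-0.45 ± 0.12, 0.0207). The count fell to 1 without C57BL/6 replicate 1 and to 2 without C57BL/6 replicate 4 or 129S1/SvImJ replicate 1 or 2.

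On the control diet the only call was Hoxa4, a cervical paralog, at 7, 10, 5 and 7 in C57BL/6 and 20, 9, 14 and 21 in 129S1/SvImJ (1.01 ± 0.30, limma adjusted p = 0.0224, 17.5% of all genes called, 10.0% higher). One 129S1/SvImJ library, at 9, fell within the C57BL/6 range. The call was lost without C57BL/6 replicate 3 or 129S1/SvImJ replicate 1 or 4, and without C57BL/6 replicate 4 the count rose to 3. Hoxd4 on this diet was at 36, 77, 67 and 30 against 52, 41, 47 and 45, and the 95% interval of its log2 difference, -0.57 to 0.42, did not reach the -1.32 estimated after 12 weeks of low fat diet. In iWAT after 12 weeks no member was called between strains in limma (4 of 39 at an unadjusted p under 0.05, 1.69% of all genes called). Hoxd4 there was at 56, 69, 50 and 39 in C57BL/6 and 24, 55, 47 and 25 in 129S1/SvImJ (-0.55 ± 0.34). Hoxa10 and Hoxc10 were not called either, and the strains overlapped for both. Without 129S1/SvImJ replicate 4, and without the lymphocyte-high libraries, Hoxc11 at 2 against 1 was the 1 call. No C57BL/6 iWAT library has a value between 1 and 5, so this call cannot be read as a strain difference.

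**Figure D4:**
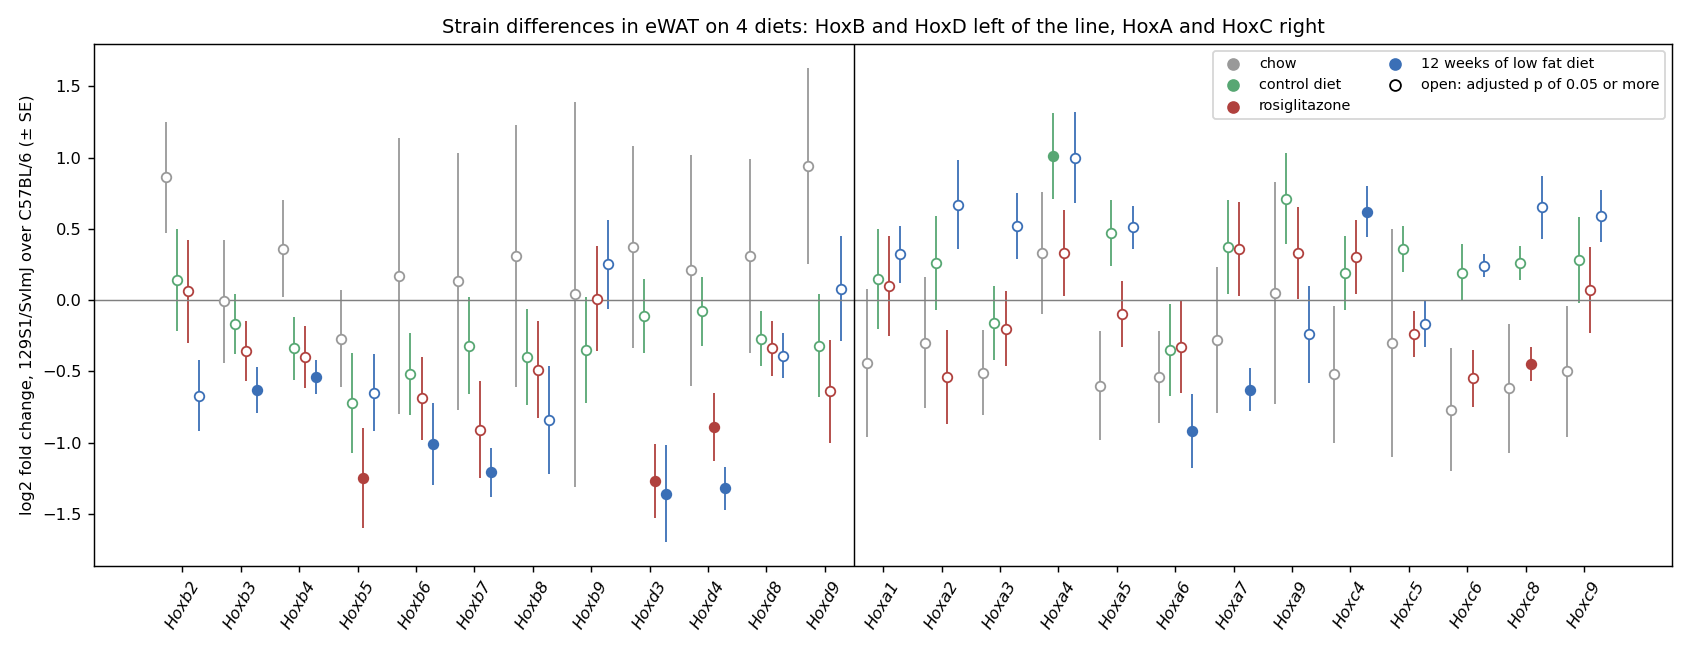
Log2 fold change of 129S1/SvImJ over C57BL/6 (± SE) in eWAT on 4 diets for the detected HoxB and HoxD genes except Hoxd10 and Hoxd13 (left of the line) and the HoxA and HoxC genes up to paralog 9 (right), filled where the limma adjusted p was under 0.05. After 12 weeks of low fat diet the filled HoxB and HoxD points lie between -0.54 and -1.36, while the chow points are all open.

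On chow no member was called between strains in limma, and none had an unadjusted p under 0.05, with 4.99% of all genes called. The authors' deposited p-values, from a test that the sources used here do not name, were under 0.05 for Hoxa10, Hoxa11 and Hoxd13. All of these were highest in 129S1/SvImJ replicate 1. Hoxd4 had levels of 85, 155, 92, 47 and 180 in C57BL/6 and 191, 746, 43, 58 and 59 in 129S1/SvImJ. Hoxb6 had 31, 65, 40, 27 and 55 against 142, 386, 17, 18 and 12. In both genes 129S1/SvImJ replicates 2 and 1 stood above every C57BL/6 library, and for Hoxb6 the other 3 libraries of that strain stood below every C57BL/6 library. Replicates 1 and 2 of 129S1/SvImJ also had the highest summed epididymis markers. Over the list as a whole only replicate 2 was high, with a mean log2 level of 13.73 against 4.70 in replicate 1. Without these 2 libraries 1 member, Hoxb6, passed the threshold in limma (11.4% of all genes called). Leaving out the libraries with the highest Hoxb6 fixes its direction, so nothing about strain is read from it.

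Across the chow libraries the sums of HoxB and HoxD were high where that of HoxC was low. In 129S1/SvImJ the summed level of HoxB was 571, 1448, 176, 160 and 164 and that of HoxD 531, 1539, 126, 142 and 163, while that of HoxC was 375, 147, 765, 777 and 769. Replicate 2 had the highest level of all 8 HoxB members with a group mean of at least 5 and the lowest of all 5 such HoxC members. HoxD was divided, with Hoxd3, Hoxd4, Hoxd8 and Hoxd9 highest in replicate 2 and the other detected members, Hoxd10 and Hoxd13, highest in replicate 1. C57BL/6 had HoxB sums of 221, 511, 233, 193 and 451, HoxD sums of 181, 348, 205, 145 and 401, and HoxC sums of 872, 522, 871, 849 and 501. Replicates 2 and 5 had the high sums for HoxB and HoxD and the low ones for HoxC. Hoxb9 was at 161 and 174 in them against 5, 12 and 14, while Hoxb2 was lowest in replicate 5, at 11 against 14 to 22.

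**Figure D5:**
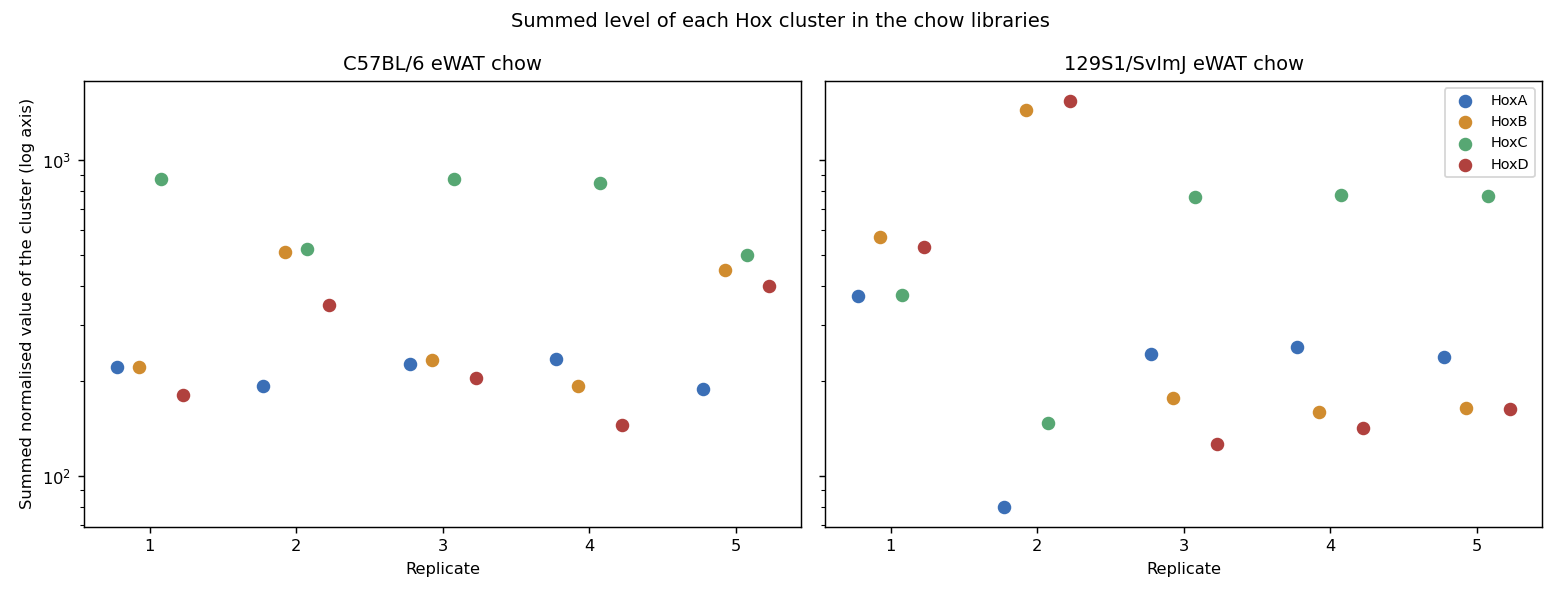
Summed normalised level of each Hox cluster in each chow library (log axis), C57BL/6 left and 129S1/SvImJ right. HoxB and HoxD are high and HoxC is low in C57BL/6 replicates 2 and 5 and in 129S1/SvImJ replicates 1 and 2.

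Markers of other cells also differed between these libraries. The summed level of the 8 epididymis and vas deferens markers was 219567 in 129S1/SvImJ replicate 2, 34015 in replicate 1, and 57 to 166 in the other chow libraries. The mean log2 level of this list was 13.73, 4.70 and 2.84 to 4.08 in that order, so replicate 1 was not high over the whole list. The 6 skin and glandular epithelium markers summed to 4188 and 1438 in 129S1/SvImJ replicates 2 and 1 and to 922 and 919 in C57BL/6 replicates 2 and 5, against 20 to 95 in the rest. Their mean log2 level was 7.92, 6.33, 4.01 and 3.90 in that order, against 1.67 to 3.07, so the C57BL/6 sums need not reflect the whole list. The 8 mesothelial markers summed to 1205 and 1454 in C57BL/6 replicates 2 and 5, against 300 to 865 in the others. In 129S1/SvImJ they summed to 3403 in replicate 1 and 1944 in replicate 2, against 1334 to 2747 in the other libraries. The 8 progenitor and fibroblast markers summed to 14740 and 16033 in C57BL/6 replicates 2 and 5 and to 7760 to 9810 in the other 3 of the strain. In 129S1/SvImJ the same list was lowest in replicate 2, at 7744, against 9055 to 12220 in the other libraries. The part of such cells in the Hox levels was not tested. 129S1/SvImJ replicate 1 alone also held high-numbered paralogs, with Hoxa10 at 163, Hoxa11 at 95, Hoxd10 at 37, Hoxd13 at 25, Hoxa9 at 20 and Hoxd11 at 13. In replicates 2, 3 and 5 of the strain these genes were at 1 or 2, and in replicate 4 Hoxa10 was at 14, Hoxa9 at 8, Hoxd10 at 5 and the others at 1. The antisense transcript Hoxa11as reached 84 in this group, and without a stated strand setting its reads cannot be told apart from those of Hoxa11.

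Rosiglitazone was compared with the control diet within each strain. The labels give the rosiglitazone libraries an experiment number of their own, so the drug and that experiment cannot be told apart. In 129S1/SvImJ 1 member was called (2.6%, against 5.51% of all genes called and 2.56% called lower). Hoxc5, a cervical and upper trunk paralog, had levels of 95, 94, 99 and 89 on control diet and 57, 64, 51 and 47 on rosiglitazone. All treated libraries lay below all control libraries, and the log2 fold change was -0.78 ± 0.16 (limma adjusted p = 0.00357, 95% interval -1.11 to -0.45). The authors' deposited table gives a log2 fold change of -0.80 for Hoxc5 in this comparison. Their p-values, from a test that the sources used here do not name, were under 0.05 for Hoxc5 and also for 3 members not called in limma. These were Hoxc6 (-0.58), Hoxd3 (-0.73) and Hoxd4 (-0.44). The limma call of Hoxc5 held under all 14 alternatives. In the same libraries the 7 adipocyte markers summed to 102258 to 114336 on control diet and 143028 to 151717 on rosiglitazone, which did not overlap. The 8 mesothelial markers summed to 1500 to 2344 against 682 to 1586, and the 4 macrophage markers to 1626 to 2337 against 1031 to 1712, both with overlap. None of these markers was at the floor, and their part in the Hoxc5 difference was not tested. In C57BL/6 Hoxc5 was at 74, 78, 59 and 83 on control diet and 46, 70, 69 and 77 on rosiglitazone, which overlapped (-0.18 ± 0.16). The neighbours of Hoxc5 were not called in 129S1/SvImJ. Hoxc6 was at 64, 45, 44 and 57 against 37, 32, 38 and 41, apart (-0.48 ± 0.20, adjusted p = 0.191), and Hoxc4 was at 23 to 29 against 23 to 30 (0.03 ± 0.26).

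In C57BL/6 no member was called for rosiglitazone in limma (7 of 39 at an unadjusted p under 0.05, 2.43% of all genes called). Hoxc8 came nearest, at 246, 216, 225 and 308 on control diet and 373, 279, 336 and 362 on rosiglitazone. Control replicate 4, at 308, lay within the treated range, and the log2 fold change was 0.44 ± 0.12 (limma adjusted p = 0.0591). It was called with a filter on low values (0.0391), with the replicate block (0.0354), and without control replicate 4 (0.0132) or rosiglitazone replicate 2 (0.0216). The authors' table gives 0.49 for Hoxc8 here, with a p-value under 0.05 in their own test. In 129S1/SvImJ Hoxc8 was at 318, 278, 298 and 288 against 216, 242, 232 and 298 (-0.27 ± 0.12, adjusted p = 0.26). The test of the difference in drug effect between strains called no member (limma, 5 of 39 at an unadjusted p under 0.05, 0.21% of all genes called). Its smallest adjusted p was that of Hoxc8, at a difference of -0.71 ± 0.17 (129S1/SvImJ minus C57BL/6, adjusted p = 0.107, 95% interval -1.07 to -0.35), and Hoxc8 became the 1 call without C57BL/6 control replicate 4 or 129S1/SvImJ rosiglitazone replicate 4. For Hoxc5 the difference was -0.60 ± 0.22 (0.33). The border genes stayed near the floor on the drug, with Hoxa9, Hoxa10 and Hoxc10 at 1 to 4 in all 16 libraries of the drug experiment.

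The related lists were also compared between strains and with the drug in eWAT. Of the cofactors, between strains on rosiglitazone, Meis2 (-0.88 ± 0.16) and Meis1 (-0.57 ± 0.14) were called lower in 129S1/SvImJ in limma, and after 12 weeks of low fat diet Pknox2 (1.00 ± 0.22) and Pbx3 (0.50 ± 0.14) were higher and Pknox1 (-0.32 ± 0.08) lower. On control diet 2 cofactors were called lower, among them Meis2 (-0.62 ± 0.16). Of the 23 Polycomb and Trithorax genes, 6 were called lower in 129S1/SvImJ on chow, 9 on control diet and 5 on rosiglitazone, and none was called higher on these diets. Of all 22869 genes, 4.99%, 17.5% and 10.7% were called in either direction, and 596, 1716 and 1196 were called lower, in that order. The chow count includes 129S1/SvImJ replicates 1 and 2, which other markers set apart. On rosiglitazone the Polycomb and Trithorax calls were Mll2, Cbx7, Wbp7, Mll1 and Rnf2, between -0.91 and -0.44. After 12 weeks of low fat diet (21.7%) 3 were lower and 2, Ezh1 (0.56 ± 0.07) and Eed (0.51 ± 0.08), higher. Of the 17 retinoic acid genes, Dhrs3, which turns retinal back to retinol, was higher in 129S1/SvImJ on control diet (0.68 ± 0.10), on rosiglitazone (0.82 ± 0.10) and after 12 weeks of low fat diet (0.72 ± 0.07). A second gene was called higher on each of these diets, Aldh1a1 (0.75 ± 0.14), Rxrg (0.59 ± 0.17) and Rxrg (1.11 ± 0.15) in that order. The genes called lower were Aldh1a3 (-2.05 ± 0.39) and Rarg (-0.45 ± 0.14) on control diet, Aldh1a2 (-1.02 ± 0.29) on rosiglitazone, and Rxra (-0.28 ± 0.07) and Rxrb (-0.26 ± 0.07) after 12 weeks. With the drug, Cyp26b1, which breaks down retinoic acid, was called lower in C57BL/6 (-1.45 ± 0.38, 2.43% of all genes called). In the same comparison 1 of the 9 cofactors, not named here, was also called lower. In 129S1/SvImJ (5.51% of all genes called) the drug calls of the Polycomb, Trithorax and retinoic acid lists were Ezh2 (0.61 ± 0.16), Kdm6b (0.58 ± 0.16) and Aldh1a3 (1.50 ± 0.39) higher and Aldh1a1 (-0.82 ± 0.14) lower.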

How the data were processed

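mRNA sequencing was analysed in 43 libraries in 10 groups, and 6 further samples (5 of F1 mice, 1 of GRO-seq) were not analysed here. HOMER and the mouse build mm9 are named in the submitters' processing notes; for the aligner and the strand setting of counting, the sources used here give nothing. The values are whole-number scores with a floor of 1, normalised by the authors, so depth is unknown and no count model was used. The authors' own log2 fold changes and p-values, per the file headers, stand beside these values and were read only where named. Library sums ran from 5537632 to 7526303. The eWAT and iWAT tables of the 12-week diet have the same top values, which allowed depots to be set against each other, while the chow libraries and the drug experiment each have other top values, and no level was compared between these sets.

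Per symbol the transcript with the highest total was kept, which left 22869 genes. limma 3.58.1 in R 4.3.3 was fitted to log2(value + 1) with trend and robust settings, without a replicate block, over all genes of an experiment, and p-values were adjusted by Benjamini-Hochberg over all genes. Intervals are 95% from the moderated t distribution. The test was also run on simulated data. Genes changed there were drawn only from those with a typical level above 5, and the coarse C57BL/6 iWAT steps were not simulated. That run therefore bears little on genes near the floor. The labels do not say whether equal replicate numbers mark the same mouse. In no comparison did all same-numbered pairs correlate above 0.1. On chow 3 of 5 pairs did, between strains in iWAT 3 of 4, and in the depot comparisons none of 4 in either strain. Such correlations cannot exclude pairing, so the replicate block was run as an alternative. Members given by library were up to 6 per direction with the largest depot changes and, in other comparisons, up to 6 called ones with the smallest p; others named were chosen after their values were seen. Alternatives were another pseudocount (4), a filter on values under 5, quantile normalisation, no trend or robust setting, the block, only the 2 groups compared, values under 5 set to 5, and leaving out libraries. Members, lists and tests were chosen with earlier results of these data known. No pair of members shares exon bases, while the spans of Hoxa3 with Hoxa4, Hoxa5 and Hoxa6 and of Hoxd3 with Hoxd4 overlap, so intronic or antisense reads could be split between them. Results of some genes are not reported here.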

Additional observations from a re-analysis of the deposited data

Results flagged for a closer look

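In 21 of 238 member and group sets 1 library stood far from the others of its group. The nominal rate of the rule is about 1 in 20. The sets share libraries and hold whole numbers with a floor, so the count cannot be read as an excess over that rate. Of the 21 sets, 11 belonged to 2 chow libraries of 129S1/SvImJ. Replicate 2 stood apart at 82 for Hoxb2, 178 for Hoxb3, 137 for Hoxb4, 116 for Hoxb8, 156 for Hoxd3, 746 for Hoxd4 and 551 for Hoxd8. Replicate 1 stood apart at 163 for Hoxa10, 95 for Hoxa11, 37 for Hoxd10 and 25 for Hoxd13.

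On control diet the libraries standing apart were 129S1/SvImJ replicate 1 for Hoxa7 (45) and Hoxb5 (15), C57BL/6 replicate 1 for Hoxa5 (9) and C57BL/6 replicate 4 for Hoxb3 (24). On rosiglitazone they were C57BL/6 replicate 1 for Hoxa7 (40) and 129S1/SvImJ replicate 2 for Hoxd4 (31). In iWAT they were C57BL/6 replicate 2 for Hoxa10 (53) and Hoxb2 (27) and 129S1/SvImJ replicate 2 for Hoxb6 (15) and Hoxb7 (14).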

How the results depend on the processing

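Of 369 values of the 25 called gene results under an alternative, 272 kept the call, 97 lost it and 0 changed direction. Of 238 values of 15 results not called, 13 gained a call and 6 changed direction. These 15 are only a part of the results not called, so 13 is not the total of calls gained over all members. The number of members called between strains after 12 weeks of low fat diet in eWAT was 14 with the filter on low values, which tests fewer genes, and 2 with the replicate block. With the block it was 3 for the depot in each strain and 1 for rosiglitazone in C57BL/6, where it was also 1 with the filter. With only the 2 groups compared it was 3 for the depot in C57BL/6. It was 1 on chow without 129S1/SvImJ replicates 1 and 2, whose removal fixes the direction of that gene. Without the lymphocyte-high iWAT libraries, an alternative chosen after seeing the data, it was 1 for strain in iWAT and 2 for the strain by depot test. The cause of these shifts was not tested.

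Leaving out 1 library at a time gave 3 to 8 calls for the depot in C57BL/6, 3 to 4 in 129S1/SvImJ and 0 to 1 for their difference. For strain it gave 3 to 8 after 12 weeks of low fat diet, 0 to 3 on control diet, 1 to 4 on rosiglitazone, 0 on chow and 0 to 1 in iWAT. For rosiglitazone it gave 0 to 1 in C57BL/6, 1 in 129S1/SvImJ and 0 to 1 for their difference. Between depots the log2 fold change in C57BL/6 ran from -0.04 to 0.70 for Hoxa4 and from -1.30 to 0.09 for Hoxa5, and in 129S1/SvImJ from -0.23 to 0.37 for Hoxd10 and from -0.01 to 0.38 for Hoxd4. That of Hoxd10 was -0.33 without the lymphocyte-high libraries. Same-numbered samples correlated between -0.396 and 0.428 over the comparisons, which does not settle whether they were paired. Coarse low values limit what C57BL/6 iWAT can show.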
